A study of Homo sapiens with 45 samples.

Results

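POU3F1, POU3F2, POU3F3, POU4F1, POU4F2 and POU4F3 encode 6 transcription factors of the POU family that act in the developing nervous system. Their chromatin contacts were taken from a poised-enhancer capture Hi-C map. A pair of fragments on the same chromosome (a cis pair) was assigned to a gene when either fragment lay within 1000 bp of either RefSeq end of that gene. This gave 72 of the 152688 cis pairs, and each of the 6 genes had at least 1. Of all autosomal protein-coding genes, 50.9% had at least 1 cis pair.

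The map comes from HNES1, a human embryonic stem cell line, 5 days into the transition from naive to primed pluripotency. One culture group received UNC6852 at 2.5 µM, a PROTAC that leads to degradation of EED, a subunit of Polycomb repressive complex 2 (PRC2). Another received UNC1999 at 1 µM, which inhibits the catalytic subunits EZH1 and EZH2 of the same complex, and the control group received the solvent DMSO. Addition began 24 h before day 0 and was renewed daily. Each group had 15 libraries from 3 biological replicates spread over 2 batches, and all 15 stand in 1 pooled score per pair, so the 3 profiles have no measured spread and no difference below carries a test. Read numbers behind the scores are unknown. Because the doses differ, no ranking of the compounds is drawn.

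Each value is a CHiCAGO score, which grows as the reads joining a captured fragment and its partner exceed those that a background model predicts. Pairs that scored at least 5 count as called, and every listed pair does so in at least 1 profile. A contact called in a single profile therefore tends to be lower in the others by the way the pairs were listed. Captured fragments were short (median 622 bp) and their partners long (median 5258 bp). A partner, and any gene end near it, is thus placed only to within such a length.

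POU factors bind DNA through a POU-specific domain and a POU homeodomain, and the family takes its name from Pit-1, Oct and Unc-86. POU3F factors are made in neural progenitors and migrating neurons, and POU4F factors in sensory neurons as these mature. Poised enhancers of such genes carry Polycomb marks in pluripotent cells, before the genes are used.

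The RefSeq promoter windows of all 6 genes (GRCh38.p14) were read over the 250 bases before the start that the promoter table uses. For 5 genes these bases end at the annotated start of the gene. For POU3F3 the table uses a start farther in, so that its window lies 589 to 838 bp inside the annotated gene, and it is not printed. The windows of 2 genes are shown 5′ to 3′ on the strand of the gene, because POU3F1 has the most contacts of the 6, and the POU4F3 window is the only 1 of the 6 that a listed captured fragment holds. Capitals mark CCAAT boxes and the TATA sequence TATAAA. The POU3F1 window is chr1:38046794-38047043 on the minus strand and the POU4F3 window is chr5:146338589-146338838 on the plus strand.
POU3F1: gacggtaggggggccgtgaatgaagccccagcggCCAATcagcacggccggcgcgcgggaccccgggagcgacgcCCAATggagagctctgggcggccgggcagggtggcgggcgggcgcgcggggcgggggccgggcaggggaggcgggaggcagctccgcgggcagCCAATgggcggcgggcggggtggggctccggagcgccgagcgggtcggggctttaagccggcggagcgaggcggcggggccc
POU4F3: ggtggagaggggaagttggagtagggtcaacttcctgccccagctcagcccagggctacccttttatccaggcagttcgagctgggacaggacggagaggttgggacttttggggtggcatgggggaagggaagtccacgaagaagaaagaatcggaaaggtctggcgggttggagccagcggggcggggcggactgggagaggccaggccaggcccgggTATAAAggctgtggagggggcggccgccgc

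Searched on both strands, CCAAT occurred 3 times in the POU3F1 window, 2 times in that of POU3F2, 3 times in that of POU3F3 and 0 times in those of the 3 POU4F genes. Of 15843 protein-coding promoters of the same length, 34.5% hold it. TATAAA occurred once, upstream of POU4F3, and 9.23% of promoters hold it. The octamer ATGCAAAT, the classical target of the family, was in none of the 6 windows and in 1.65% of all promoters. GATC, the site cut by DpnII in this assay, was also in none of the 6, against 34.0% of all promoters. GC content ran between 62.0% (POU3F3) and 80.8% (POU3F1), with a median of 62.4% over all promoters. The CpG ratio (observed over expected) was 0.53 for POU4F3, the lowest of the 6, and 1.19 for POU4F1, the highest, with a median of 0.74 over all promoters. The POU4F1 ratio exceeded that of 98.7% of promoters.

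Across the 6 genes, 32 of 72 pairs were called in UNC6852 (44.4%), 33 in UNC1999 (45.8%) and 24 in DMSO (33.3%). Over all cis pairs the shares were 46.1%, 42.3% and 42.4%. The genes' share was thus lower than the share of all cis pairs in DMSO and near it in the treated profiles. The order depended on how near a fragment had to lie to a gene end. With 5000 bp in place of 1000 bp the genes gained 106 pairs, and calls numbered 63 in UNC6852, 75 in UNC1999 and 69 in DMSO.

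Most contacts were far from their gene. The median distance was 529 kb, against 314 kb over all cis pairs. Less than 100 kb was spanned by 4 of 72 pairs (5.56%, against 8.29% of all cis pairs). POU3F1 supplied 32 of the 72, also with a median of 529 kb. By gene the median was 160 kb at POU4F1 (1 pair) and 263 kb at POU4F3. It was 1149 kb at POU3F2, 1398 kb at POU3F3 and 41474 kb at POU4F2. Upstream partners made up 58 of the 72, among them all 32 pairs of POU3F1. In 18 pairs the facing fragment lay within 1000 bp of an end of another annotated gene (15 distinct fragments), and in 5 pairs the facing fragment was itself captured. Called in 1 profile were 59 pairs (81.9%, against 77.5% of all cis pairs), and in 2 profiles 9 pairs. Called in all 3 profiles were 4 pairs (5.56%, against 8.33% of all cis pairs). All 4 belonged to POU3F1.

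**Figure D1:**
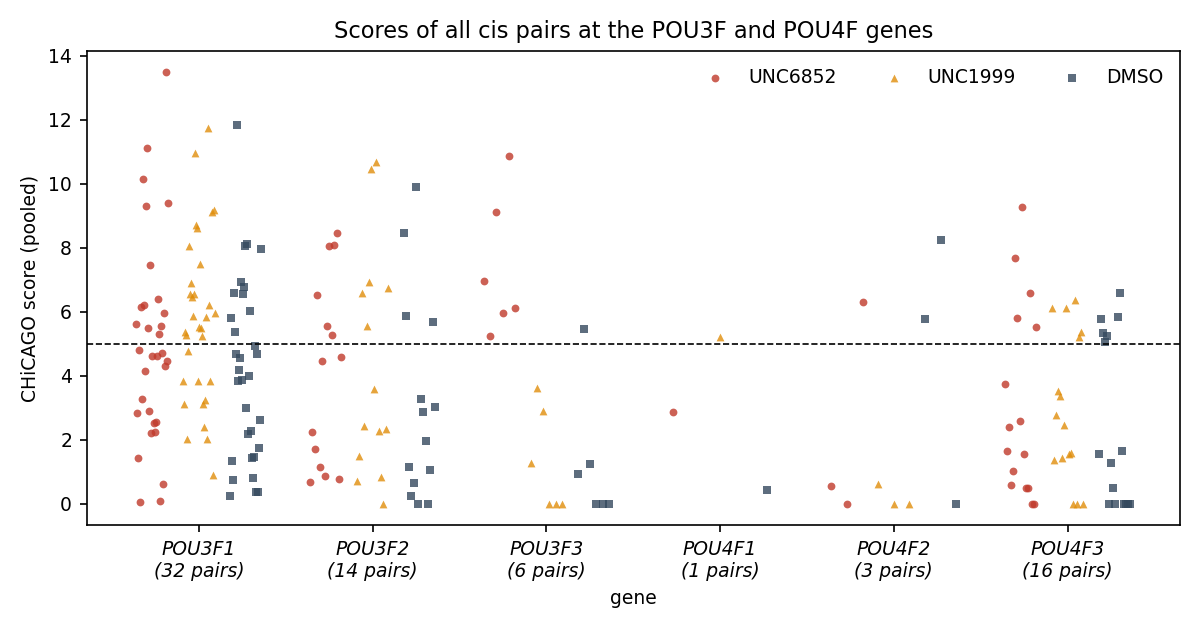
CHiCAGO score (vertical axis) of each of the 72 cis pairs, by gene, with UNC6852 circles, UNC1999 triangles and DMSO squares in separate columns ordered by distance. The dashed line marks the calling score of 5. POU3F3 has all 6 UNC6852 points above the line and 0 UNC1999 points above it.

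POU3F1, also called OCT6, works in the early epiblast and in neural fate, and drives myelination by Schwann cells. It lies at chr1:38043829-38046793 on the minus strand and had 32 cis pairs, more than 97.6% of genes with any. Of these, 14 were called in UNC6852, 21 in UNC1999 and 11 in DMSO. Its median score was 4.66 in UNC6852, 5.68 in UNC1999 and 4.09 in DMSO. All 32 pairs ran upstream, over 419 to 788 kb, and ended in 2 stretches of chromosome 1 with no protein-coding gene between them and POU3F1. The captured fragments sit at the opposite end of the gene. They are adjoining DpnII fragments 298 bp and 109 bp past the 3′ end, with 18 and 11 pairs. Another fragment, 878 bp past that end, was met by 3 captured fragments in the distal stretches.

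The nearer stretch spans 135 kb (chr1:38459995-38595409) and held 22 pairs to 16 fragments, 419 to 550 kb from the gene. It contains no protein-coding gene end, and the closest protein-coding gene, RRAGC, a GTPase of the amino acid sensing pathway, lies 243 kb away. Calls numbered 9 in UNC6852, 15 in UNC1999 and 10 in DMSO. The mean asinh score was 2.10 in UNC6852, 2.37 in UNC1999 and 2.10 in DMSO. The strongest contact by mean score, 466.6 kb away, scored 10.2 in UNC6852, 6.54 in UNC1999 and 11.8 in DMSO. At 477.2 kb, over an end of the lncRNA LOC105378658, the scores were 11.1 in UNC6852, 6.55 in UNC1999 and 6.93 in DMSO. At 521.0 kb they were 7.47 in UNC6852, 8.62 in UNC1999 and 6.76 in DMSO. These 3 contacts were called in every profile, all from the fragment 298 bp past the gene.

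The farther stretch spans 96.7 kb (chr1:38737305-38834032) and ends 4.17 kb from RRAGC. It held 10 pairs to 7 fragments, 697 to 788 kb away. Calls numbered 5 in UNC6852, 6 in UNC1999 and 1 in DMSO. Here the mean asinh score was 2.08 in UNC6852, 2.27 in UNC1999 and 1.41 in DMSO, so the difference from DMSO was 0.67 for UNC6852 and 0.85 for UNC1999. The nearer stretch gave -0.0033 and 0.27. The farther stretch thus held the larger differences from DMSO of the 2. In the nearer stretch 10 of 22 pairs were called in DMSO. In the farther stretch 1 of 10 was, and the others were listed through a treated call. Its differences thus follow in part from how pairs were listed. Its contact at 788.0 kb was the 4th called in all profiles, with 9.39 in UNC6852, 5.95 in UNC1999 and 7.95 in DMSO. Only the 3′ flank saw these stretches: no listed captured fragment of POU3F1 overlaps its promoter window.

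**Figure D2:**
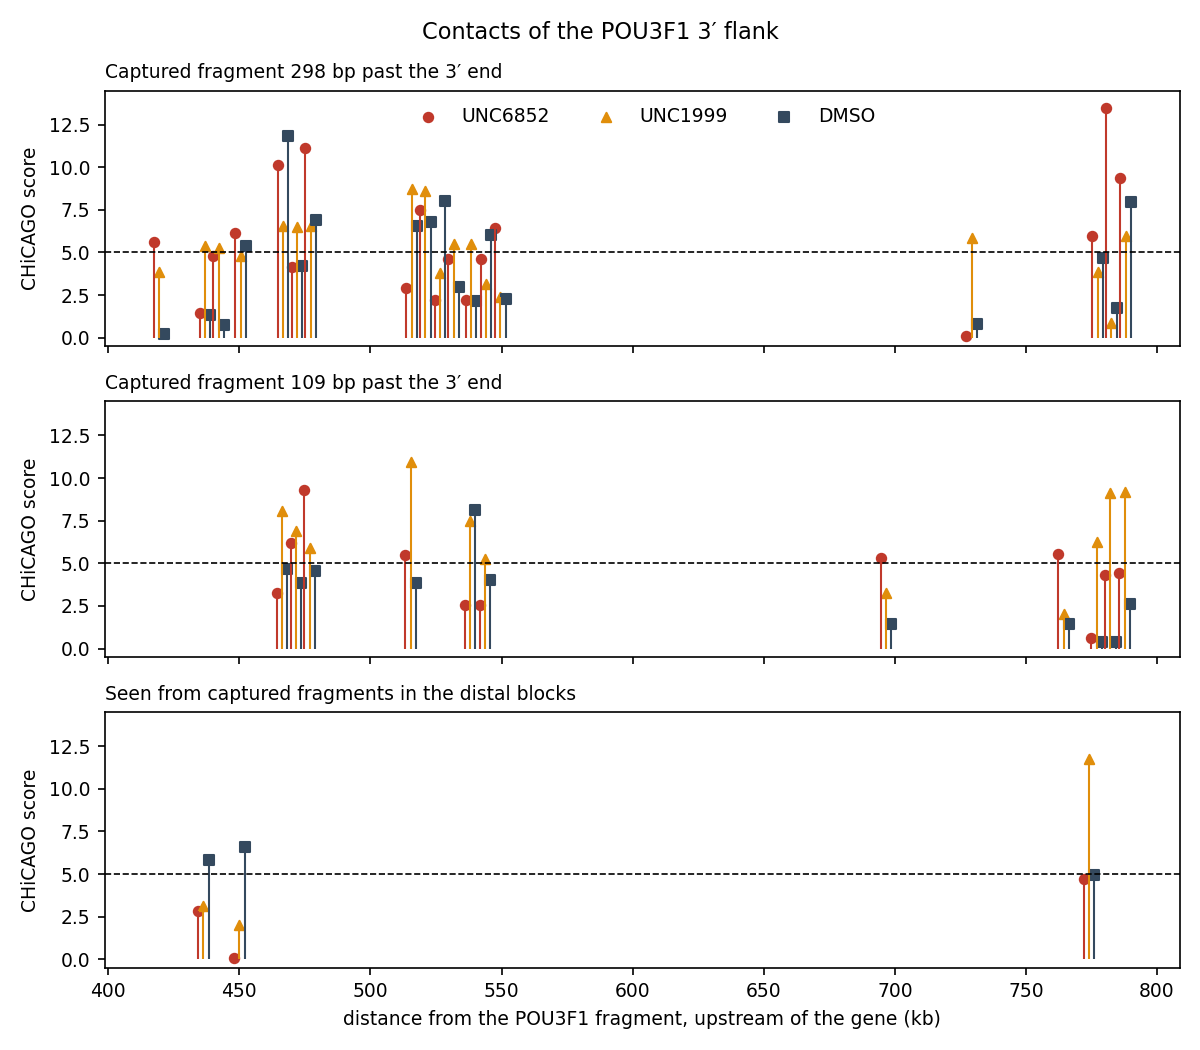
Score of each POU3F1 pair (vertical axis) against the distance in kb from the POU3F1 fragment (horizontal axis), in separate panels for the 2 captured fragments and for the 3 pairs captured from the distal side. UNC6852 is drawn as circles, UNC1999 as triangles and DMSO as squares, offset sideways by 2 kb, with the calling score of 5 dashed. Contacts fall in stretches at 419 to 550 kb and at 697 to 788 kb.

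The adjoining fragments gave a check on how far scores of nearly the same contact vary. Calls from the fragment 298 bp past the gene numbered 9 in UNC6852, 11 in UNC1999 and 8 in DMSO. From the fragment 109 bp past it they numbered 5 in UNC6852, 9 in UNC1999 and 1 in DMSO. Listed from both were 9 facing fragments. Of these, 1 was called from both in UNC6852, 6 in UNC1999 and 0 in DMSO, while 7, 9 and 6 were called from at least 1 of the captured fragments. The facing fragment near 782 kb shows the size of the disagreement. From the fragment 298 bp past the gene it scored 13.5 in UNC6852, 0.892 in UNC1999 and 1.75 in DMSO. From its neighbour it scored 4.30 in UNC6852, 9.12 in UNC1999 and 0.378 in DMSO, the largest UNC1999 increase over DMSO at this gene (2.54 on the asinh scale). Which profile was highest thus differed between captured fragments 1 DpnII site apart.

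In 3 pairs the capture ran from the distal side. At 774.1 kb the scores were 4.70 in UNC6852, 11.8 in UNC1999 and 4.92 in DMSO. At 450.0 kb they were 0.054 in UNC6852, 2.03 in UNC1999 and 6.60 in DMSO, the largest decreases from DMSO at POU3F1 for both compounds (-2.53 and -1.13 on the asinh scale). The third, at 436.3 kb by the lncRNA LINC01685, had 2.83 in UNC6852, 3.11 in UNC1999 and 5.80 in DMSO. DMSO was thus highest in 2 of the 3. The largest UNC6852 increase at the gene was at 419.3 kb, with 5.63 in UNC6852, 3.83 in UNC1999 and 0.236 in DMSO (2.19 on the asinh scale). Over all 32 pairs the mean difference from DMSO was 0.21 for UNC6852, with 20 pairs higher, and 0.45 for UNC1999, with 21 higher. As 11 of the 32 were called in DMSO, the others were listed through a treated call, which bears on these values too.

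POU3F2, or BRN2, is used in cortical and hypothalamic development. It lies at chr6:98834574-98839458 on the plus strand and had 14 pairs, 7 from a captured fragment inside the gene and 7 from another 627 bp past its 3′ end. Calls numbered 6 in UNC6852, 6 in UNC1999 and 4 in DMSO. The mean asinh score was 1.87 in UNC6852, 1.84 in UNC1999 and 1.46 in DMSO, and no pair was called in all 3. The differences from DMSO were 0.41 and 0.38, with 10 and 9 of 14 pairs higher. As 4 of the 14 pairs were called in DMSO, the others were listed through a treated call. Both differences thus follow in part from how pairs were listed.

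A stretch of 119 kb far upstream (chr6:97591783-97711138) took 9 of the 14 pairs, 1130.2 to 1248 kb from the gene. It holds no protein-coding gene end, none lies between it and POU3F2, and the nearest protein-coding gene, MMS22L, a DNA repair factor, is 308 kb away. Calls there numbered 5 in UNC6852, 4 in UNC1999 and 2 in DMSO. The contact at 1169 kb scored 8.04 in UNC6852, 10.7 in UNC1999 and 2.87 in DMSO. At 1248 kb the scores were 4.60 in UNC6852, 6.75 in UNC1999 and 3.01 in DMSO. At 1178 kb they were 8.07 in UNC6852, 0.826 in UNC1999 and 0 in DMSO, the largest UNC6852 increase at this gene. The fragment at the near edge of the stretch covers an end of the lncRNA LOC101927314 and was seen from both captured fragments. From inside the gene it had 4.47 in UNC6852, 6.93 in UNC1999 and 9.90 in DMSO, and from the flank 0.879 in UNC6852, 10.5 in UNC1999 and 0 in DMSO. DMSO was thus the highest profile from inside the gene and the lowest from the flank.

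The other POU3F2 contacts were nearer. At 250.1 kb upstream the scores were 0.679 in UNC6852, 0.722 in UNC1999 and 8.45 in DMSO, the largest decrease from DMSO at the gene for both compounds (-2.20 and -2.16). Downstream, 3 pairs at 281 to 292 kb had 1 call in each profile, each at a different fragment. The fragment at 281.5 kb holds the microRNA gene MIR548AI and had 2.23 in UNC6852, 1.5 in UNC1999 and 5.87 in DMSO. A last pair at 414.1 kb had 1.14 in UNC6852, 5.56 in UNC1999 and 0.640 in DMSO. FBXL4, a mitochondrial protein gene, lies between POU3F2 and these downstream partners.

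POU3F3, or BRN1, shares roles with POU3F2 in the upper layers of the mouse cortex and also acts in kidney tubules. It is annotated at chr2:104853276-104927773 on the plus strand. Its captured fragments lie 952 bp and 239 bp before that start, inside the lncRNA PANTR1, and gave 4 and 2 pairs. All 6 pairs were called in UNC6852, 0 in UNC1999 and 1 in DMSO. Of the 398 genes with exactly 6 cis pairs, 2.01% had all 6 called in UNC6852. The mean asinh score was 2.66 in UNC6852, 0.81 in UNC1999 and 0.71 in DMSO. The UNC6852 difference from DMSO was 1.95, and 19 of 4979 genes with at least 3 pairs lay higher. Of the 6 pairs, 5 were called in UNC6852 alone and were listed through that call. This UNC6852 difference, its rank and the share with all 6 called thus follow in part from how pairs were listed. The UNC1999 difference was 0.093.

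The pairs of POU3F3 were spread out. The contact at 880.0 kb upstream scored 9.12 in UNC6852, 2.88 in UNC1999 and 1.26 in DMSO. At 384.7 kb upstream the scores were 6.96 in UNC6852, 1.29 in UNC1999 and 0.934 in DMSO. The pair at 440.3 kb, by the lncRNAs LINC01831 and LOC124908058, had 5.24 in UNC6852, 3.6 in UNC1999 and 5.47 in DMSO. It was the only pair of the 6 not higher in UNC6852 than in DMSO. No protein-coding gene lies between POU3F3 and these 3 fragments. The remaining 3 pairs scored 0 in both UNC1999 and DMSO. In UNC6852 they had 5.97 at 1916 kb upstream, 10.9 at 66.2 Mb downstream inside TLK1, and 6.12 at 71.1 Mb downstream inside LNPK.

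The POU3F3 difference depended on which fragments counted for the gene. With gene ends taken to 5000 bp, 38 pairs from 8 captured fragments counted for the gene, with 17 calls in UNC6852, 12 in UNC1999 and 14 in DMSO. The differences from DMSO were then 0.33 for UNC6852 and -0.048 for UNC1999. For POU3F1 the wider limit added no pair.

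**Figure D3:**
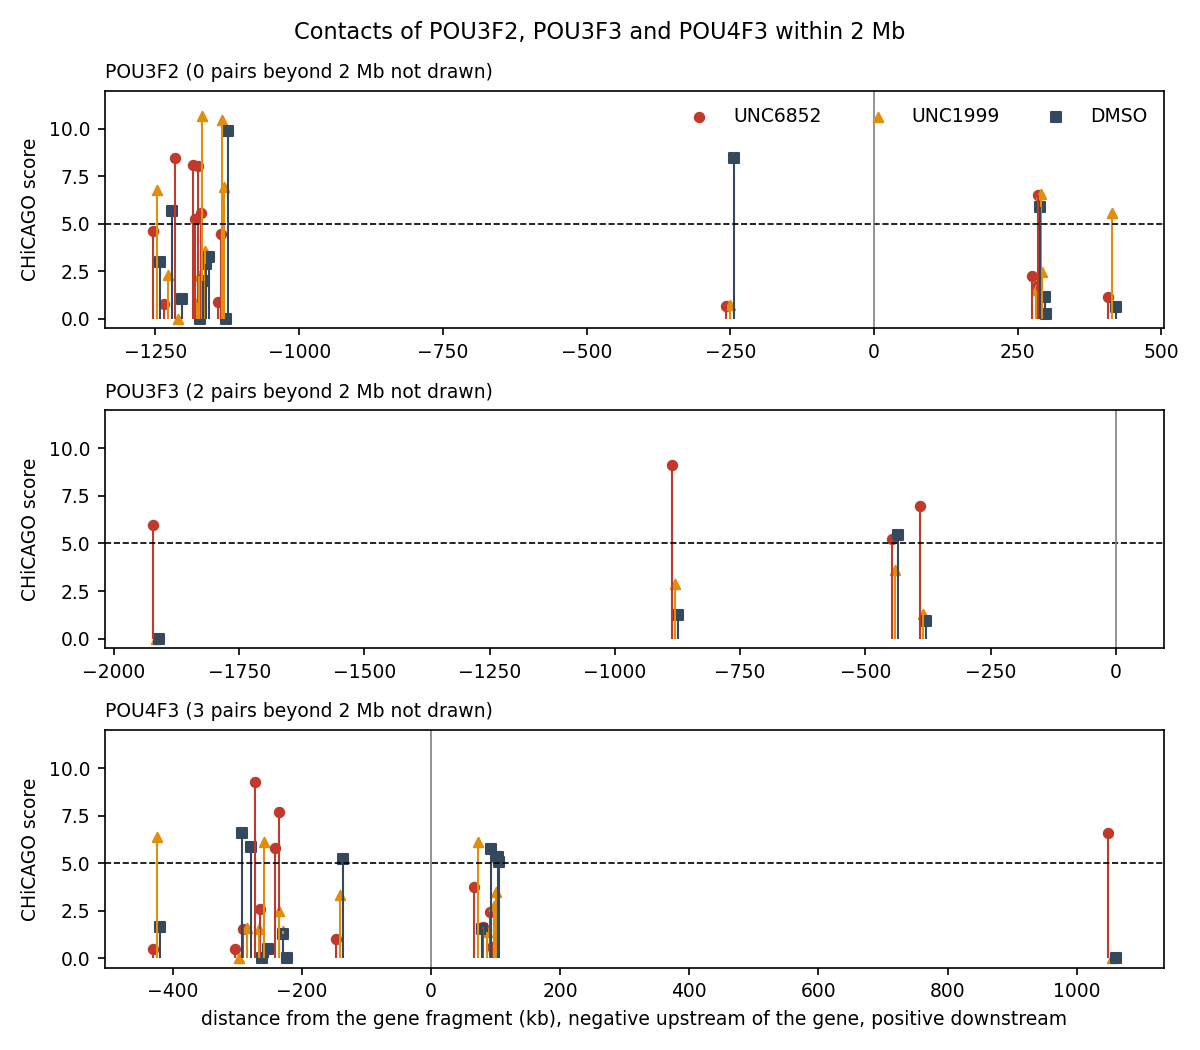
Score (vertical axis) against distance from the gene fragment in kb (horizontal axis, negative upstream of the gene and positive downstream) for POU3F2, POU3F3 and POU4F3, for pairs of up to 2 Mb, with UNC6852 as circles, UNC1999 as triangles, DMSO as squares and the calling score of 5 dashed. POU3F2 has 9 pairs at 1130.2 to 1248 kb upstream, and POU4F3 has 4 downstream pairs within 100 kb, of which 3 are called in DMSO.

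POU4F1, or BRN3A, is needed for sensory neurons of the dorsal root and trigeminal ganglia in the mouse. At chr13:78598362-78603552 on the minus strand, it had 1 cis pair, from a captured fragment 560 bp inside its start that also lies within the antisense lncRNA OBI1-AS1. The partner was 160.4 kb upstream, beyond OBI1, over ends of the lncRNA LOC105370272 and the pseudogene RPL21P111. It scored 2.87 in UNC6852, 5.20 in UNC1999 and 0.439 in DMSO. With the 5000 bp limit the gene had 25 pairs, with 7 calls in UNC6852, 9 in UNC1999 and 12 in DMSO. DMSO was thus the lowest profile in the single pair and had the most calls among the 25.

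POU4F2, or BRN3B, directs retinal ganglion cells. At chr4:146638893-146642474 on the plus strand it had 3 pairs, of which 1 was called in UNC6852, 0 in UNC1999 and 2 in DMSO. At 537.1 kb upstream, by the lncRNA LOC105377469, the scores were 0.568 in UNC6852, 0.620 in UNC1999 and 5.77 in DMSO. A pair spanning 41.5 Mb downstream had 0 in UNC6852, 0 in UNC1999 and 8.24 in DMSO. A pair of 93.8 Mb, captured from the far side by the lncRNA LOC124900700, had 6.32 in UNC6852 and 0 in both UNC1999 and DMSO. The mean differences were -0.72 for UNC6852 and -1.56 for UNC1999, the only negative values among the 6 genes.

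POU4F3, or BRN3C, is needed for the survival of hair cells in the inner ear, and its mutations cause hereditary deafness. At chr5:146338839-146341728 on the plus strand it had 16 pairs at 4 captured fragments, 1 of which spans the start and the whole promoter window printed above. Of these pairs, 15 were captured from the gene and 1 from the distal side. The readthrough gene RBM27-POU4F3 shares the end of POU4F3, so contacts of that end cannot be assigned to either gene alone. Calls numbered 5 in UNC6852, 5 in UNC1999 and 6 in DMSO. No pair was called in more than 1 profile, and 77.5% of all cis pairs were likewise called in only 1. The mean asinh score was 1.46 in UNC6852, 1.52 in UNC1999 and 1.16 in DMSO. The differences from DMSO were 0.30 and 0.36, with 7 pairs higher and 7 lower for UNC6852, and 8 higher and 6 lower for UNC1999. Over pairs of up to 2 Mb the differences were 0.18 and 0.076, and with the 5000 bp limit they were -0.086 and -0.010.

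Downstream of POU4F3, 4 pairs at 73.0 to 99.9 kb were the shortest contacts of all 6 genes. They had 0 calls in UNC6852, 1 in UNC1999 and 3 in DMSO, and contain no protein-coding gene end. At 73.0 kb the scores were 3.74 in UNC6852, 6.12 in UNC1999 and 1.57 in DMSO. The fragment 98.0 kb from the captured fragment nearest the 3′ end had 2.41 in UNC6852, 2.76 in UNC1999 and 5.34 in DMSO. The same fragment, seen at 99.9 kb from the fragment over the promoter, had 0.577 in UNC6852, 3.51 in UNC1999 and 5.06 in DMSO. Both views of it were called in DMSO alone.

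Upstream of POU4F3, 7 pairs at 142 to 298 kb met a stretch that holds SH3RF2, PLAC8L1 and LARS1, the last a leucyl-tRNA synthetase. Calls numbered 3 in UNC6852, 1 in UNC1999 and 3 in DMSO. Fragments by an end of PLAC8L1 scored 7.68 in UNC6852, 1.44 in UNC1999 and 0 in DMSO at 229.1 kb. At 235.0 kb, by the same gene, they scored 5.81 in UNC6852, 2.47 in UNC1999 and 1.27 in DMSO. By SH3RF2, a ubiquitin ligase gene, the scores at 258.3 kb were 2.58 in UNC6852, 6.13 in UNC1999 and 0.500 in DMSO. The fragments at these gene ends were each called in a single treated profile and were listed through that call. Of all cis pairs, 77.5% were likewise called in only 1 profile. A captured fragment 267.1 kb away gave the largest UNC6852 increase, with 9.27 in UNC6852, 1.56 in UNC1999 and 0 in DMSO. At 298.0 kb, by the lncRNA LOC107986459, DMSO was the highest profile, with 0.498 in UNC6852, 0 in UNC1999 and 6.58 in DMSO.

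Other facing genes of POU4F3 lay farther off. DPYSL3, a cytoskeletal protein gene of growing axons, was met at 1055 kb downstream with 6.59 in UNC6852 and 0 in both UNC1999 and DMSO. LTC4S, which encodes leukotriene C4 synthase, was met across 33.5 Mb with 5.52 in UNC6852 and 0 in both UNC1999 and DMSO. Neither was called in UNC1999 or DMSO. The other POU4F3 pairs beyond 2 Mb were called in UNC1999 alone. At 21.8 Mb downstream the scores were 0 in UNC6852, 5.37 in UNC1999 and 0 in DMSO, the largest UNC1999 increase over DMSO at this gene (2.38 on the asinh scale). At 4.25 Mb upstream they were 0 in UNC6852, 5.20 in UNC1999 and 0 in DMSO. Of the 72 pairs, 7 exceeded 2 Mb, 2 at POU3F3, 2 at POU4F2 and 3 at POU4F3, and each scored 0 in the 2 profiles where it was not called. The same held for 87.5% of the 11261 cis pairs beyond 2 Mb.

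**Figure D4:**
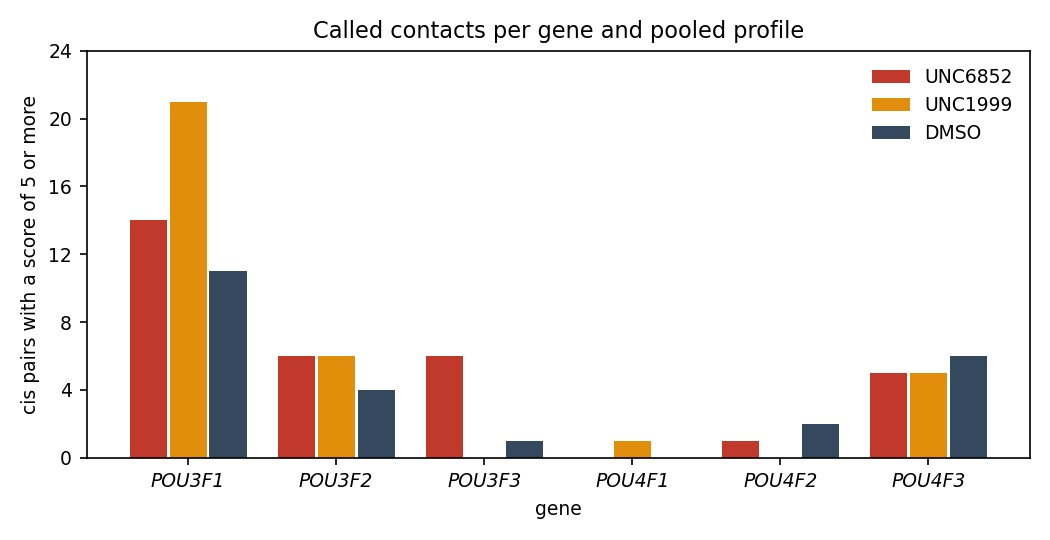
Number of cis pairs with a score of 5 or more (vertical axis, from 0) for each gene, with bars for UNC6852, UNC1999 and DMSO from left to right. POU3F1 had 14, 21 and 11, and POU3F3 had 6, 0 and 1.

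Set beside all genes with at least 3 cis pairs, 4 of the 5 POU genes with that many had a higher mean asinh score in UNC6852 than in DMSO, where 56.4% of the 4979 genes did. In UNC1999 it was again 4 of 5, against 49.1%. Both contrasts use the same DMSO profile, so the counts are not independent of each other. The median difference over the 5 was 0.30 for UNC6852 and 0.36 for UNC1999, beside 0.069 and -0.0076 over all 4979. With the 5000 bp limit, where all 6 genes had at least 3 pairs, 3 were higher in UNC6852 and 2 in UNC1999, and their median differences were 0.060 and -0.029. From the 5th to the 95th percentile, all genes spanned -0.90 to 1.03 for UNC6852 and -0.95 to 0.96 for UNC1999. POU3F3 in UNC6852 and POU4F2 in UNC1999 lay outside these ranges. POU3F3 had 6 pairs, 5 called in UNC6852 alone, and POU4F2 had 3, of which 0 were called in UNC1999. Every pair is listed through a call, so the listing itself favours such values in genes with few pairs. POU4F1 is left out here, having 1 pair.

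**Figure D5:**
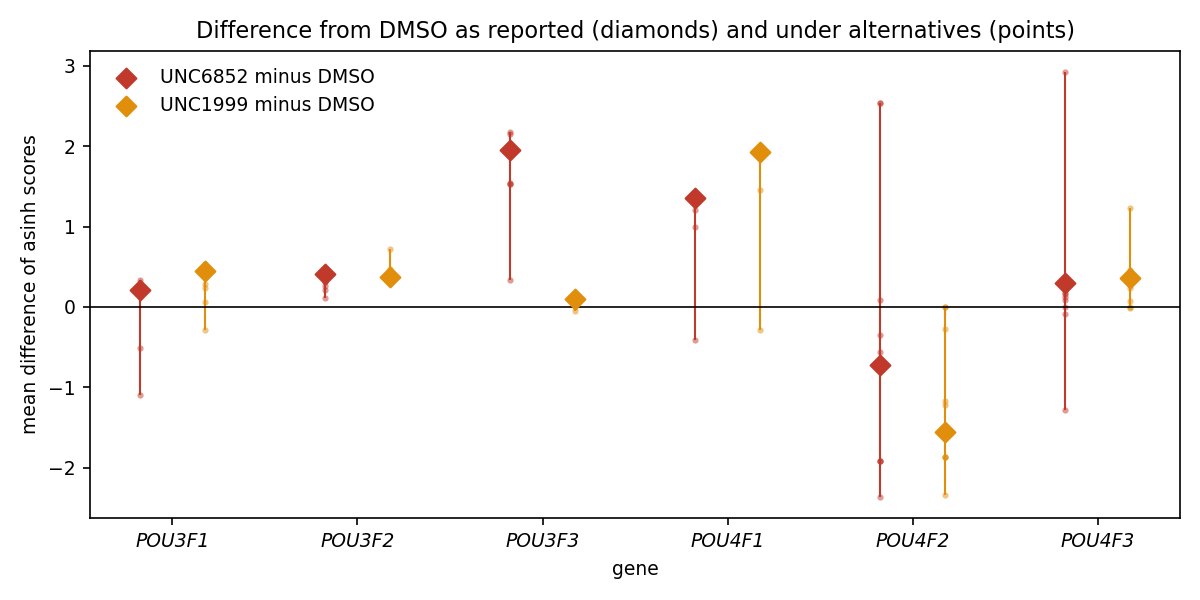
Mean difference of asinh scores from DMSO (vertical axis) per gene, UNC6852 at left and UNC1999 at right of each gene. Diamonds are the values given in the text, and points with their range line are the same value under the alternative settings. POU3F2 keeps both differences above 0, between 0.11 and 0.46 for UNC6852 and between 0.30 and 0.72 for UNC1999. Every setting uses pairs listed through a call in at least 1 profile, so none removes the effect of the listing. Several settings leave the 14 pairs of POU3F2 and both values unchanged, and it has no pair within 0 bp or from distal captures alone.

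Few calls recurred between profiles. Of the 24 DMSO calls, UNC6852 shared 6 (25%, exact 95% binomial interval 9.77 to 46.7%), against 31.4% over all cis calls of DMSO. UNC1999 shared 7 (29.2%, 12.6 to 51.1%), against 29.3%. Of the 32 UNC6852 calls, 8 were also called in UNC1999 (25%, 11.5 to 43.4%), against 29.1%. Each interval covers counting error only and includes the share of all cis pairs. The intervals treat pairs as independent, although 9 facing fragments of POU3F1 were listed from both of its captured fragments. They may therefore be too narrow. POU3F1 supplied most of the shared calls, with 5 and 6 of its 11 DMSO calls. Without it, 1 of 13 DMSO calls was shared with UNC6852 and 1 of 13 with UNC1999 (7.69% each, 0.195 to 36.0%).

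By mean asinh score in the 3 profiles, the genes nearest to each POU gene among 3265 with at least 5 pairs were FAF1 and SPA17 for POU3F1, at Euclidean distances of 0.053 and 0.080. For POU3F2 they were RPL31 and ERRFI1, at 0.019 and 0.049. POU3F3 had no neighbour as close, with RAP2B and MEGF10 at 0.22 and 0.25. POU4F3 had CNGA3 and SOX14 at 0.056 and 0.078. None of these genes shares a pair with its POU gene, and 3 values per gene set the match.

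Among the other POU genes, POU5F1, the pluripotency factor OCT4, had 2 pairs, both called in UNC1999 alone. Partners and targets of the POU3F and POU4F factors in neurons numbered 24 genes. Of these, 18 had a pair, where 50.9% of autosomal protein-coding genes did. They had 310 pairs in all, with calls of 145 in UNC6852, 132 in UNC1999 and 134 in DMSO. These counts lie near the called shares of all cis pairs, 46.1%, 42.3% and 42.4% in the same order. SOX2, the usual partner of POU3F2 at neural enhancers, had none, nor had SOX1, SOX4, MYT1L, NTRK3 and RUNX1. Of the 13 genes with at least 3 pairs, 7 were higher and 6 lower than in DMSO for each compound, with medians of 0.022 for UNC6852 and 0.035 for UNC1999. ISL1, which acts beside POU4F1 in sensory neurons, had 76 pairs and differences of 0.056 and 0.042. NEUROD1, a neuronal differentiation gene, had 4 pairs, of which 4 were called in UNC6852, 1 in UNC1999 and 0 in DMSO.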

How the data were processed

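Poised-enhancer capture Hi-C was measured in 45 libraries, and the deposited table holds 1 CHiCAGO score per fragment pair and condition, pooled by the authors over 15 libraries each, per the labels. The build is GRCh38, per the submitters' processing notes; aligner and caller settings are not given in the sources used here. Depth is unknown. Genes came from RefSeq GRCh38.p14. Scores were used as deposited, with calls at 5 or more, and differences are means over a gene's pairs of asinh(score) in a treated profile minus DMSO. No test was possible on 1 column per condition. Intervals are exact Clopper-Pearson 95% binomial. Stretches join facing fragments at most 100 kb apart.

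Contacts were named by rule: per gene the 3 highest by mean score, the largest increase and decrease for each compound, and those called in all profiles beyond 100 kb, plus facing genes within 1000 bp of the partner fragment (at most 8 per gene). Further pairs that complete a stretch or a small gene were named after their values were seen. The genes, lists and rules were chosen with earlier results of these data known. Some genes of the lists are not reported here. In a check, known shifts were added to real scores shuffled between profiles, and the calculation returned them. This checks the arithmetic of the mean only, not the gene assignment or the listing of pairs. Alternatives were score thresholds, gene-end limits, distance limits, scalings and ways of averaging. Python 3.11.15 was used with pandas 2.3.3, numpy 2.4.6, scipy 1.17.1 and, for figures, matplotlib 3.10.9.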

Additional observations from a re-analysis of the deposited data

Results flagged for a closer look

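Pairs between chromosomes were outside the comparisons above. The 12 captured fragments at the 6 genes had 97 such pairs, of which 31 were called in UNC6852, 38 in UNC1999 and 28 in DMSO, and they are named here because both treated counts exceed that of DMSO. Over all 281836 pairs between chromosomes the calls numbered 96770 in UNC6852, 101879 in UNC1999 and 84499 in DMSO, the same order. The difference was not tested, since each condition has 1 pooled profile.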

How the results depend on the processing

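No paired analysis was possible because each condition has 1 pooled column. Depth limits every value to an unknown degree. Call counts for UNC6852, UNC1999 and DMSO were 13, 10 and 7 at a threshold of 7, and 4, 4 and 1 at a threshold of 10. They were 1, 1 and 1 with gene ends within 0 bp, 63, 75 and 69 within 5000 bp, 2, 1 and 2 from distal captures alone, and 18, 12 and 13 without POU3F1 (chosen after seeing the data). The shares of DMSO calls found in UNC6852 and in UNC1999, and of UNC6852 calls found in UNC1999, were 100%, 0% and 0% at a threshold of 10, where DMSO had 1 call. They were 0% each within 0 bp and from distal captures alone, and 7.69%, 7.69% and 5.56% without POU3F1. The median difference over genes for UNC6852 was 0.060 within 5000 bp, -1.09 from distal captures alone, 0.17 for pairs averaging a score of 5 or more, 0.15 from medians over pairs and 0.092 from means over captured fragments. For UNC1999 it was -0.029 within 5000 bp, -0.29 from distal captures alone and 0.064 from means over captured fragments. Signs turned for POU3F1 in UNC6852 (-1.09 from distal captures alone, -0.51 from means over captured fragments) and in UNC1999 (-0.29 from distal captures alone). They turned within 5000 bp for POU3F3 in UNC1999 (-0.048), for POU4F1 in both (-0.41 and -0.28), and for POU4F3 in UNC6852 (-0.086) and UNC1999 (-0.010). POU4F2 in UNC6852 gave 2.54 within 0 bp, 2.54 from distal captures alone and 0.092 from means over captured fragments, and POU4F3 gave -1.29 in UNC6852 within 0 bp and -0.0031 in UNC1999 from means over captured fragments. From distal captures alone (the gene as the facing fragment) 5 pairs are left, and POU3F1 alone has 3, and the cause of the other changes was not tested. Quantile normalization moved the median over all genes from 0.069 to -0.0071 for UNC6852 and from -0.0076 to -0.0063 for UNC1999, and no POU gene changed sign.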
